A study of Homo sapiens with 16 samples.

Results

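The small RNA content of 2 cultured human cancer cell lines was compared: PC3, an androgen-independent line derived from a bone metastasis of prostate cancer, and MDA-MB-231, a triple-negative line derived from a pleural effusion of breast cancer. The comparison rests on the 4 libraries of the series that were made from whole cells, 2 of each line, out of 16 libraries in all. The other 12 libraries hold RNA of extracellular vesicles (EVs) that the same lines had released, isolated with an aqueous two-phase system (next-gen ATPS), by ultracentrifugation (UC, labelled VC) or with a membrane column (exoRNeasy, labelled Qiagen), with 2 libraries of each line and method. Both lines were wild type and untreated, and cell RNA was extracted with TRIzol before small RNA library preparation. The labels describe the same serum-supplemented DMEM for both lines, whereas the study's methods give MDA-MB-231 another share of serum. Medium and line therefore cannot be told apart. The methods also put EV donor cells in serum-free medium before EV collection, and name these cells as the source of the cell RNA. Whether that RNA was taken before or after the serum-free step is not stated. Nothing states that the replicates were separate cultures, so a p-value here reflects the scatter among the sequenced libraries, possibly of technical origin only.

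Whole cells hold several families of short RNA. MicroRNAs (miRNAs) are cut from hairpins and silence mRNAs that match their seed, the bases at positions 2 to 8. Small nucleolar RNAs (snoRNAs) mostly lie in introns of host genes. C/D box snoRNAs guide 2′-O-methylation of ribosomal RNA, H/ACA box snoRNAs guide pseudouridylation, and a few such as U3 and U8 take part in the cleavage of the ribosomal RNA precursor. The C/D box snoRNAs of the imprinted region 15q11 are processed from the introns of the long transcript SNHG14, which is made from the paternal chromosome and is best known in neurons, and loss of SNORD116 is tied to Prader-Willi syndrome. Circular RNAs (circRNAs) are back-spliced exons. Only reads of 18 to 35 bases were kept by the authors, so snoRNA and circRNA values count short fragments assigned to these entries, and no value here measures a whole snoRNA or a back-splice junction.

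Depth differed widely. PC3 replicates 1 and 2 and MDA-MB-231 replicate 1 held 34422, 97408 and 44370 miRNA reads, 3555333, 10849128 and 3900437 snoRNA reads, and 22455448, 67987682 and 24363924 circRNA reads. MDA-MB-231 replicate 2 held 153, 16635 and 260466. These are sums over entries. A fragment that fits several entries can be counted in each, so the snoRNA and circRNA sums can exceed the fragments sequenced. Values are TPM as the authors named them, here scaled to the same total in each RNA class and library, so every level is a share of its class. A single read in MDA-MB-231 replicate 2 was worth 6536 TPM for a miRNA and 60.1 TPM for a snoRNA. That library also stood apart in its makeup: the 8 circRNA entries most abundant in EVs took 56.1% of its circRNA reads, against 1.64% and 1.57% in the PC3 cells, 2.77% in MDA-MB-231 replicate 1, and 83.5% to 94.6% in the 12 EV libraries. Each of the 8 entries held 18250 reads in MDA-MB-231 replicate 2, and 45904 or 45905 in PC3 replicate 1. The same fragments can thus be counted up to 8 times in these shares. Since MDA-MB-231 replicate 2 was shallow and stood apart, calls rest on fits with and without it. A species is called higher or lower below only where 3 fits called it in the same direction at an adjusted p under 0.05: limma on all 16 libraries, limma without MDA-MB-231 replicate 2, and edgeR without that library. Log2 differences are PC3 minus MDA-MB-231 on log2(TPM + 1). For scarce species the pseudocount pulls a fold towards 0, whereas a species with no read in MDA-MB-231 replicate 2 but some in replicate 1 has a more positive difference with that library than without it. The fits without that library assume that the lone MDA-MB-231 library varied like the other groups. With 2 libraries against 2 an exact permutation test of a single value cannot go below p = 0.333, and no such test is given.

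The miRNA sequences that carry the comparison are shown first, in capitals at the seed. miR-182-5p was higher in PC3, miR-30a-5p, the miR-181 pair and miR-7-5p were higher in MDA-MB-231, miR-222-3p was the most abundant mature miRNA of both lines, and miR-30e-5p shares the miR-30a seed. Sequences are from RefSeq, assembly GRCh38.p14.
hsa-miR-182-5p: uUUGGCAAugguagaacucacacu
hsa-miR-30a-5p: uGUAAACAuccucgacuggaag
hsa-miR-30e-5p: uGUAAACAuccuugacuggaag
hsa-miR-181a-5p: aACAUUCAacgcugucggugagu
hsa-miR-181b-5p: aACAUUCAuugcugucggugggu
hsa-miR-7-5p: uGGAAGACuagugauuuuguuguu
hsa-miR-222-3p: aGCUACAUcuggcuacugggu
miR-182-5p lies at chr7:129770447-129770470 (minus strand), miR-30a-5p at chr6:71403595-71403616 (minus strand) in LINC00472, miR-30e-5p at chr1:40754371-40754392 (plus strand) in NFYC, and miR-222-3p at chrX:45747036-45747056 (minus strand) in MIR222HG. miR-181a-5p and miR-181b-5p share the seed ACAUUCA and are each encoded by 2 genes, on chromosomes 1 and 9, so their reads cannot be assigned to a locus. The RefSeq records used here hold miR-7-5p at chr9:83969811-83969834 (minus strand), in HNRNPK, and again on chromosome 19. These records lack some miRNAs, so the loci listed may be incomplete.

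The largest log2 differences among the snoRNAs called in all 3 fits were in the 15q11 region. Most SNORD116 copies and their single-copy neighbours were abundant in PC3, and all drew few or no reads in MDA-MB-231. Of the 357 snoRNAs tested, 45 were higher in PC3 in all 3 fits (12.6% of those tested) and 5 were lower (1.4%), and 26 of the 45 are encoded in SNHG14. In limma on 16 libraries alone, 72 were higher (20.2%) and 8 lower (2.24%). edgeR, which rescales the libraries to each other, gave 77 higher (21.6%) and 47 lower (13.2%) without MDA-MB-231 replicate 2. The median log2 difference of all 357 was 0.86 in limma, 0.44 without that library and 0 in edgeR, so each value below is to be read against this shift.

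SNORD116 is a tandem array of related orphan C/D box snoRNAs, orphan meaning that no ribosomal RNA target is known. It has 30 entries, 29 numbered copies on chromosome 15 and 1 unnumbered entry that the annotation places on chromosome 1. Summed over the entries, the PC3 replicates held 91157 and 258945 reads, 2.56% and 2.39% of snoRNA reads. In MDA-MB-231 the sums were 242 and 10 reads, 0.0062% and 0.0601%. A fragment that fits several copies can be counted in each, so these sums and shares can exceed those of the fragments. The groups did not overlap. Of the 28 tested entries, 25 were higher in PC3 in limma and 22 in all 3 fits, none was lower, and their median log2 difference was 7.57. The 28 entries show 25 distinct read profiles, since copies of identical sequence were given the same reads: SNORD116-3 and SNORD116-9, SNORD116-5 and SNORD116-7, and SNORD116-17 and SNORD116-19. Copies of differing sequence also held nearly the same reads. SNORD116-14, SNORD116-15 and SNORD116-17 held 8910, 8951 and 8997 in PC3 replicate 1, and 23 and 2 each in the MDA-MB-231 replicates. The called entries are therefore not independent of each other. The unnumbered entry held 7, 13, 0 and 0 reads in the order PC3 1, PC3 2, MDA-MB-231 1 and MDA-MB-231 2, the order used from here on, and was not called.

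SNORD116-3, SNORD116-17 and SNORD116-25 show how the copies differ within the same C/D frame, and SNORD64 is a single-copy neighbour. The C box (TGATGA) and D box (CTGA) are in capitals, read 5′ to 3′ from hg38.
SNORD116-3: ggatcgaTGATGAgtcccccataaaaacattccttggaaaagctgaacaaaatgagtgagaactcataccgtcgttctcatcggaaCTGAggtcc
SNORD116-17: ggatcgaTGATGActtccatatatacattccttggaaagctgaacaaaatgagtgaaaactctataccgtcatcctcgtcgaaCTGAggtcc
SNORD116-25: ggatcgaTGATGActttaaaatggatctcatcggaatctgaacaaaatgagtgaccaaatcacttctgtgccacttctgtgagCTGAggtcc
SNORD64: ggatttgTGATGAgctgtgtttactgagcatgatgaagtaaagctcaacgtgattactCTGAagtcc
They lie on the plus strand at chr15:25056860-25056954, chr15:25083588-25083679, chr15:25097663-25097754 and chr15:24985100-24985166, within SNHG14. The 29 copies with coordinates hold 26 distinct sequences. The longest stretch that SNORD116-3 and SNORD116-17 share is 21 bases, within the length of the reads, so reads of 1 copy can fit another and levels of single copies are uncertain.

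SNORD116-3 held 7258, 20423, 18 and 0 reads, that is 2041, 1882, 4.61 and 0 TPM. Its log2 difference was 9.69 (SE 0.67, adjusted p = 6.9e-08, limma), 8.45 without MDA-MB-231 replicate 2 and 8.12 in edgeR. On pooled reads it was 418-fold higher in PC3, with an exact 95% interval of 265 to 706 that covers counting error only. Both MDA-MB-231 libraries lay far below both PC3 libraries. SNORD116-17 held 8997, 25268, 23 and 2 reads. Its difference was 6.39 (SE 0.92, adjusted p = 9.1e-05, limma) with all libraries and 8.46 without MDA-MB-231 replicate 2, where those 2 reads stand for 120 TPM. SNORD116-25, from a later part of the array, held 1193, 3737, 1 and 0 reads and differed by 8.25 (SE 0.73, adjusted p = 5.9e-07, limma). The array was uneven in level: SNORD116-4, SNORD116-10, SNORD116-11, SNORD116-12, SNORD116-13, SNORD116-18, SNORD116-23, SNORD116-27 and SNORD116-30 lay below 100 TPM in both PC3 libraries, and the plot of the 15q11 snoRNAs along the chromosome shows them as dips.

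**Figure D1:**
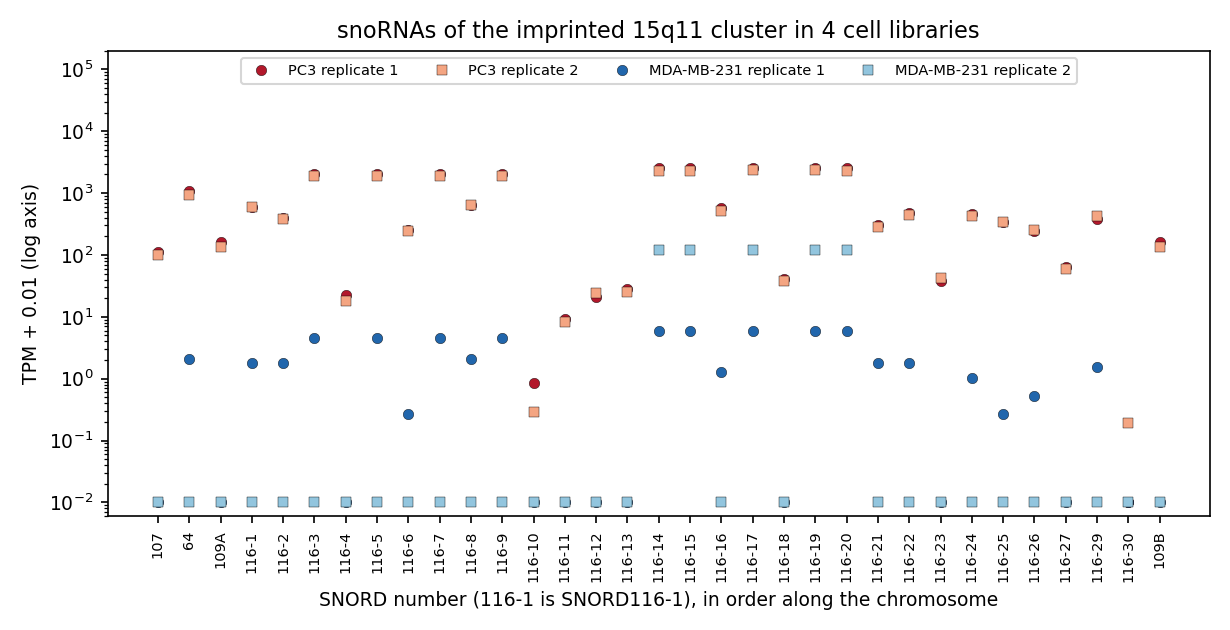
Level of SNORD107, SNORD64, SNORD109A, SNORD109B and the numbered SNORD116 copies in the 4 cell libraries (TPM + 0.01, log axis), in order along chromosome 15; an entry with no read sits at 0.01. In both PC3 libraries most SNORD116 copies lie above 100 TPM, while MDA-MB-231 replicate 1 lies below 10 TPM and replicate 2 is at 0 except for the 5 copies that drew 2 reads each.

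The remaining SNHG14 snoRNAs, chosen for display after their values were seen apart from SNORD64, followed the same pattern. SNORD64 held 3905, 10056, 8 and 0 reads, and differed by 9.18 (SE 0.68, adjusted p = 1.1e-07, limma), a pooled 475-fold (95% interval 241 to 1100). SNORD107 held 395, 1071, 0 and 0 reads and was at least 133-fold higher in PC3, taking 3 reads over both MDA-MB-231 libraries as the limit that a count of 0 allows. SNORD109A and SNORD109B, an identical pair, each held 574, 1470, 0 and 0 reads and were at least 185-fold higher. All 4 of these entries were called in all 3 fits. SNORD115 is the other large array of the region, and its members can pair with the serotonin receptor 2C mRNA. It was barely present: its 26 entries summed to 18, 137, 0 and 0 reads and none was abundant enough to be tested. Entries such as SNORD115-3, SNORD115-5 and SNORD115-9 each held 1 and 8 reads in PC3, so these sums can count a fragment more than once.

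SNORD113 and SNORD114 form the second imprinted array of C/D box snoRNAs, at 14q32, expressed from the maternal chromosome. Their 30 entries summed to 763, 2068, 3 and 0 reads, and no entry had more than 1 read in MDA-MB-231. Of 20 tested entries, 3 were higher in limma on 16 libraries, 19 in edgeR without MDA-MB-231 replicate 2, and 0 in all 3 fits, so the direction is clear in the counts but the call rests on the test used. The 14q32 miRNAs were near the floor in both lines, with 4, 16, 2 and 0 reads over 8 entries.

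**Figure D2:**
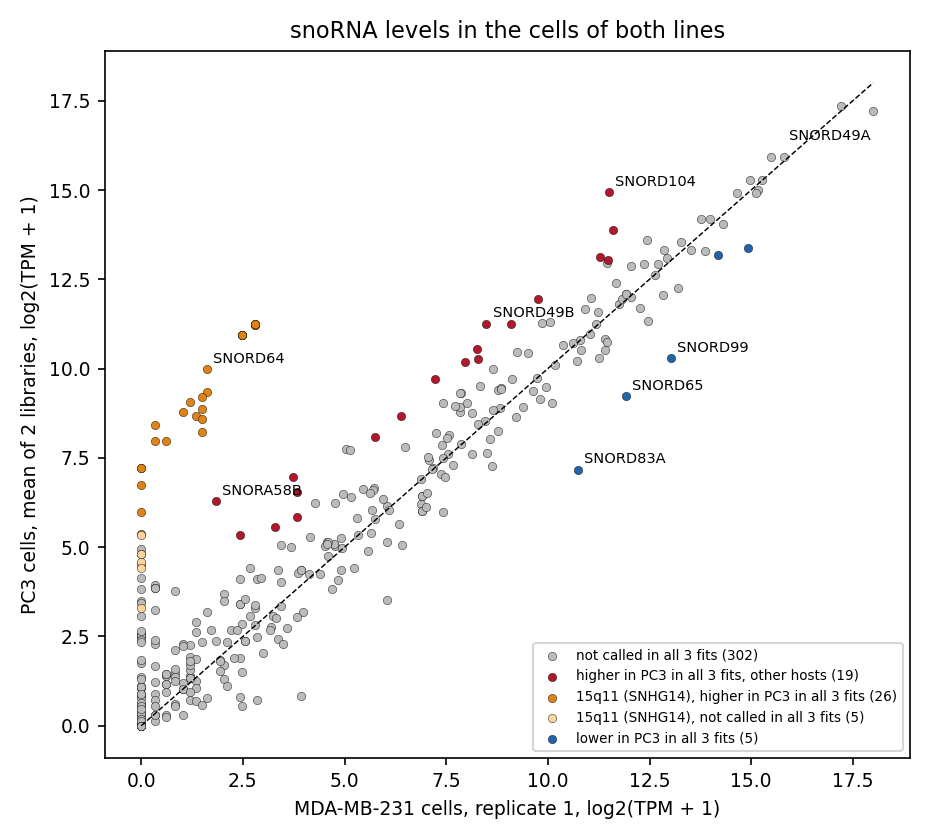
Each point is a tested snoRNA, with its level in MDA-MB-231 replicate 1 on the x axis and the mean of both PC3 libraries on the y axis, both as log2(TPM + 1); the dashed line marks equal levels. The 26 SNHG14 snoRNAs called in all 3 fits stand well above the line, 19 other snoRNAs lie above it with smaller differences, and 5 lie below it.

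The 19 other snoRNAs that were higher in PC3 lie in different host genes and differed less; those named here were chosen after their values were seen, except SNORD3A and SNORD49B. SNORD104, in an intron of the host transcript SNHG25 at chr17:64146083-64146152 (plus strand), was the most abundant of them, with 121983, 309618, 11239 and 61 reads. It took 3.43% and 2.85% of PC3 snoRNA reads against 0.288% and 0.367% in MDA-MB-231, a log2 difference of 3.27 (SE 0.41, adjusted p = 2.4e-05, limma) and a pooled 10.4-fold (95% interval 10.2 to 10.6).
SNORD104: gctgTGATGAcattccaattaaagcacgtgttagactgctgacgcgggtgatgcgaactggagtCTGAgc
Its C and D boxes are again in capitals. SNORD59A, in ATP5F1B, held 52544, 166457, 12169 and 43 reads (log2 2.41, SE 0.45). SNORD20, in the nucleolin gene NCL, held 4033, 14613, 1209 and 7 reads (log2 1.77, SE 0.23), and SNORD70, in the C/D core protein gene NOP58, held 8640, 26815, 2128 and 15 reads (log2 1.80, SE 0.42). Each PC3 library exceeded each MDA-MB-231 library in TPM for these 4 snoRNAs, and without MDA-MB-231 replicate 2 their differences were 3.44, 2.27, 1.99 and 2.17.

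Of the snoRNAs of ribosomal RNA precursor cleavage, entries of U3 and U8 were among the 19. U3, the C/D box RNA of early precursor cleavage, is spread over 8 near-identical entries that share reads, and the summed U3 reads were 14769, 37033, 4183 and 9, or 0.415%, 0.341%, 0.107% and 0.0541% of snoRNA reads. All 8 were tested, 6 were higher in limma on 16 libraries, and 2, SNORD3A and SNORD3C, in all 3 fits. SNORD3A held 4553, 11170, 975 and 2 reads and differed by 2.72 (SE 0.46, adjusted p = 0.00035, limma). U8 (SNORD118), needed for maturation of the large subunit RNAs, held 1449, 4472, 320 and 1 reads and differed by 2.53 (SE 0.49, adjusted p = 0.0013, limma). Without MDA-MB-231 replicate 2 the differences of SNORD3A and SNORD118 were 2.20 and 2.31. The table also holds separate entries named U3, with 69, 231, 21 and 0 reads, and U8, with 13, 55, 36 and 0 reads, and neither was called in all 3 fits. Of the 5 tested entries in the list of U8, U13, U17 and U22, 1 was higher in all 3 fits, and edgeR without MDA-MB-231 replicate 2 called 1 higher, SNORD118, and 2 lower, the U17 pair SNORA73A and SNORA73B, with a list median of -0.18. SNORA73A held 128, 353, 253 and 3 reads (log2 -1.51, adjusted p = 0.018 in that fit) and SNORA73B held 112, 276, 183 and 0 (log2 -1.32, adjusted p = 0.032), and limma called neither. Of the 133 H/ACA entries tested, 5 were higher in all 3 fits (3.76%, against 12.6% of all snoRNAs) and 0 lower, while edgeR without MDA-MB-231 replicate 2 called 11 higher and 11 lower. SNORA58B was the most different of them, with 278, 819, 10 and 0 reads (log2 5.37, SE 0.67, adjusted p = 2.2e-05, limma, and 4.45 without MDA-MB-231 replicate 2). SNORA58, SNORA53, SNORA62 and SNORA66 differed by 4.13, 5.09, 4.64 and 3.90 on the same scale. For these 4 the value fell to 2.92, 3.22, 2.71 and 1.98 without MDA-MB-231 replicate 2, in which each was at 0 reads. The H/ACA list as a whole had a median log2 difference of 0.94, close to the 0.86 of all snoRNAs tested. For the 212 tested C/D box entries it was 0.82. Of the 45 snoRNAs behind the 12.6%, 26 are C/D box entries of SNHG14, several of which share reads.

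In MDA-MB-231, 5 C/D box snoRNAs were higher. SNORD83A, in an intron of the ribosomal protein gene RPL3, held 487, 1614, 6698 and 35 reads, or 137, 149, 1717 and 2104 TPM. It was 3.73 lower in PC3 on the log2 scale (log2 difference -3.73, SE 0.32, adjusted p = 5.0e-07, limma), and the pooled reads were 11.8-fold higher in MDA-MB-231 (95% interval 11.2 to 12.4). SNORD99, an intronic snoRNA of SNHG12, held 4519, 13594, 32467 and 162 reads (log2 -2.83, SE 0.26, 6.62-fold). SNORD65, of SNHG29, held 2363, 5873, 15079 and 58 reads (log2 -2.61, SE 0.35, 6.76-fold). In all 3 the MDA-MB-231 replicates were close to each other despite their depths, and neither overlapped PC3. SNORD58A, in the RPL17 gene, and SNORD6, in TAF1D, differed by -1.56 and -1.15 and also did not overlap. SNORD42A (RPL23A), SNORD14C (HSPA8) and SNORD58B (RPL17) were lower in limma on 16 libraries and in edgeR, but their adjusted p was 0.086, 0.22 and 0.17 in limma without MDA-MB-231 replicate 2.

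snoRNAs that share a host gene did not always move together. SNORD83A is shown with its 2 neighbours in RPL3: SNORD83B held 480, 1232, 692 and 3 reads (log2 -0.53, adjusted p = 0.48, limma) and SNORD43 held 110394, 329209, 139241 and 574 reads (log2 -0.19, adjusted p = 0.59, limma). Whether the 3 differ from each other was not tested. SNHG29 was the only one of 59 host genes with 2 or more tested snoRNAs that had calls in both directions, and 14 of the 59 had any call. Its sequences are shown because the 2 most alike of them, SNORD49A and SNORD49B, can share reads.
SNORD49A: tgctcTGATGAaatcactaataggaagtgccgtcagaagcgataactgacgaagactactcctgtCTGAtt
SNORD49B: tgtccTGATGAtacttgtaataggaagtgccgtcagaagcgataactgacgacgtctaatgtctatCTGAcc
SNORD65: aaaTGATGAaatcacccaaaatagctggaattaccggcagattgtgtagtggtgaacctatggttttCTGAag
SNORD83A: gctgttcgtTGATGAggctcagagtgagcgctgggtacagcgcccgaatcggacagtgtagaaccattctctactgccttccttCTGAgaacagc
Capitals mark the C and D boxes. SNORD49B lies at chr17:16439505-16439576, SNORD49A at chr17:16440036-16440106 and SNORD65 at chr17:16441226-16441298, all on the plus strand of hg38 in introns of SNHG29, and SNORD83A at chr22:39315213-39315307 on the minus strand. SNORD49B, with 8981, 25817, 1394 and 6 reads, was higher in PC3 (log2 2.77, SE 0.45, adjusted p = 0.00024, limma), while SNORD65 was lower. SNORD49A, the most abundant snoRNA of MDA-MB-231, held 515314, 1729152, 1013708 and 3761 reads. Its log2 difference of -0.67 did not pass in limma (adjusted p = 0.11) and was -1.36 in edgeR without MDA-MB-231 replicate 2 (adjusted p = 0.0011). SNORD49A and SNORD49B have an identical run of 35 bases, the longest read kept, so their values are not independent of how shared reads were assigned.

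The 215 tested snoRNAs that none of the 3 fits called held 63.9%, 63.5%, 57.0% and 60.0% of snoRNA reads. SNORD2, in the translation factor gene EIF4A2, took 16.4%, 16.8%, 15.2% and 18.2% of snoRNA reads (log2 -0.01, SE 0.23). SNORD26 and SNORD30, of SNHG1, and SNORD101 and SNORD63 each held between 2.44% and 6.54% in every library, with log2 differences of 0.34, 0.15, 0.51 and -0.17, none past the threshold in limma. The host gene lists SNHG1 and EIF4A2, with 6 tested members each, and RABGGTB, with 3, had 0 members called in limma on 16 libraries. In that fit 20.2% of all snoRNAs were higher, a share that counts 29 SNHG14 entries, and 2.24% lower. edgeR without MDA-MB-231 replicate 2 called 1 lower in SNHG1, 2 higher in EIF4A2 and 1 lower in RABGGTB. GAS5, with 4 tested members, had 0 in limma and 1 lower in edgeR, and summed to only 21, 78, 68 and 0 reads. The 10 most abundant snoRNAs held 64.0% and 65.6% of reads in PC3 and 71.7% and 72.2% in MDA-MB-231. In all, 399 snoRNAs were detected in PC3 and 305 in MDA-MB-231. Of these, 303 were shared, 75.9% of the PC3 set and 99.3% of the MDA-MB-231 set. The imprinted arrays, whose entries can share reads, weigh on these counts. SNORD116 gave 30 entries in PC3 and 20 in MDA-MB-231, SNORD115 26 and 0, and SNORD113 with SNORD114 30 and 3. At 3555333 reads, the depth of the shallowest of the 3 deep libraries, 374 and 372 snoRNAs would be expected in the PC3 libraries and 303 in MDA-MB-231 replicate 1.

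miRNA reads were few, and the miRNA comparison is accordingly thinner. Of 566 miRNA entries tested, a count that holds hairpins as well as mature miRNAs, 2 were higher in PC3 in all 3 fits (0.353%) and 4 were lower (0.707%). limma on 16 libraries called 18 higher (3.18%) and 6 lower (1.06%), but 15 of the 18 rested on fewer than 20 reads over the 3 deep libraries and are not named. edgeR without MDA-MB-231 replicate 2 called 23 higher (4.06%) and 20 lower (3.53%). The median log2 difference of all entries was 2.21 in limma, 0 without that library and 0.24 in edgeR; in that library most entries were at 0.

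miR-182-5p, of the miR-183/96/182 cluster that is abundant in sensory epithelium and many carcinomas, was higher in PC3. It held 3512, 8979, 847 and 4 reads, 10.2% and 9.22% of miRNA reads in PC3 against 1.91% and 2.61% in MDA-MB-231. The difference was 2.12 on the log2 scale (SE 0.33, adjusted p = 0.0037, limma), 2.34 without MDA-MB-231 replicate 2 and 2.99 in edgeR. Pooled reads were 4.96-fold higher (95% interval 4.62 to 5.32). With array weights the adjusted p of miR-182-5p was 0.059 (limma). The hairpin entry mir-183 of the same cluster held 24, 118, 0 and 0 reads; edgeR called it (adjusted p = 1.4e-05) and limma did not (0.074). The hairpin entry mir-7641-2 held 1471, 4613, 138 and 1 reads and was 14.8-fold higher on pooled reads (95% interval 12.5 to 17.6, log2 3.32, SE 0.32, adjusted p = 3.7e-05, limma). It belongs to the list of hairpins that resemble ribosomal or transfer RNA, so fragments of those RNAs may be counted in it.

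The 4 miRNAs that were lower in PC3 are all well studied. miR-30a-5p, of a family of regulators of epithelial differentiation and autophagy, held 23, 85, 3337 and 4 reads, 0.0668% and 0.0873% of miRNA reads in PC3 and 7.52% and 2.61% in MDA-MB-231. Its log2 difference was -5.86 (SE 0.64, adjusted p = 8.9e-05, limma), and the pooled reads were 91.6-fold higher in MDA-MB-231 (95% interval 75.6 to 112). miR-30e-5p, with the same seed GUAAACA, held 95, 321, 438 and 1 reads and was not called (log2 -1.41, SE 1.00, adjusted p = 0.55, limma). Together with miR-30c-5p, these miRNAs took 0.488% and 0.611% of reads in PC3 and 9.11% and 5.88% in MDA-MB-231. Other miRNAs of this seed may be missing from that sum, since the reference sequences lack some miRNAs. The whole miR-30 list, of 14 entries, took 2.70% and 3.07% in PC3 and 13.5% and 13.7% in MDA-MB-231.

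miR-181a-5p and miR-181b-5p, known as regulators of lymphocyte development, held 49, 199, 782 and 6 reads and 93, 273, 940 and 4 reads. Their log2 differences were -3.95 (SE 0.82, adjusted p = 0.019, limma) and -3.10 (SE 0.73, adjusted p = 0.035, limma). miR-181d-5p, which has the same seed, held 108, 338, 41 and 0 reads, the opposite order in the 3 deep libraries, and was called by edgeR (adjusted p = 0.013) but not by limma (0.17). miR-7-5p, a repressor of the EGF receptor, held 166, 449, 1297 and 6 reads (log2 -2.84, SE 0.68, adjusted p = 0.035, limma). In miR-181a-5p, miR-181b-5p and miR-7-5p both MDA-MB-231 libraries exceeded both PC3 libraries, but the limma call was lost when either PC3 library was left out, with an adjusted p of up to 0.65. Centring on common species moved the 3 to -2.33, -1.48 and -1.23 (adjusted p = 0.14, 0.27 and 0.30, limma), and edgeR on all 16 libraries did not call miR-181b-5p (adjusted p = 0.10) or miR-7-5p (0.21). With array weights the adjusted p was 0.059 for all 3, and with a replicate block it was 0.0504 for miR-181b-5p and 0.058 for miR-7-5p. Quantile scaling also ended the call of these last 2. With no filter, or with only the cell libraries, limma called none of the 6 miRNA entries that all 3 fits had called.

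**Figure D3:**
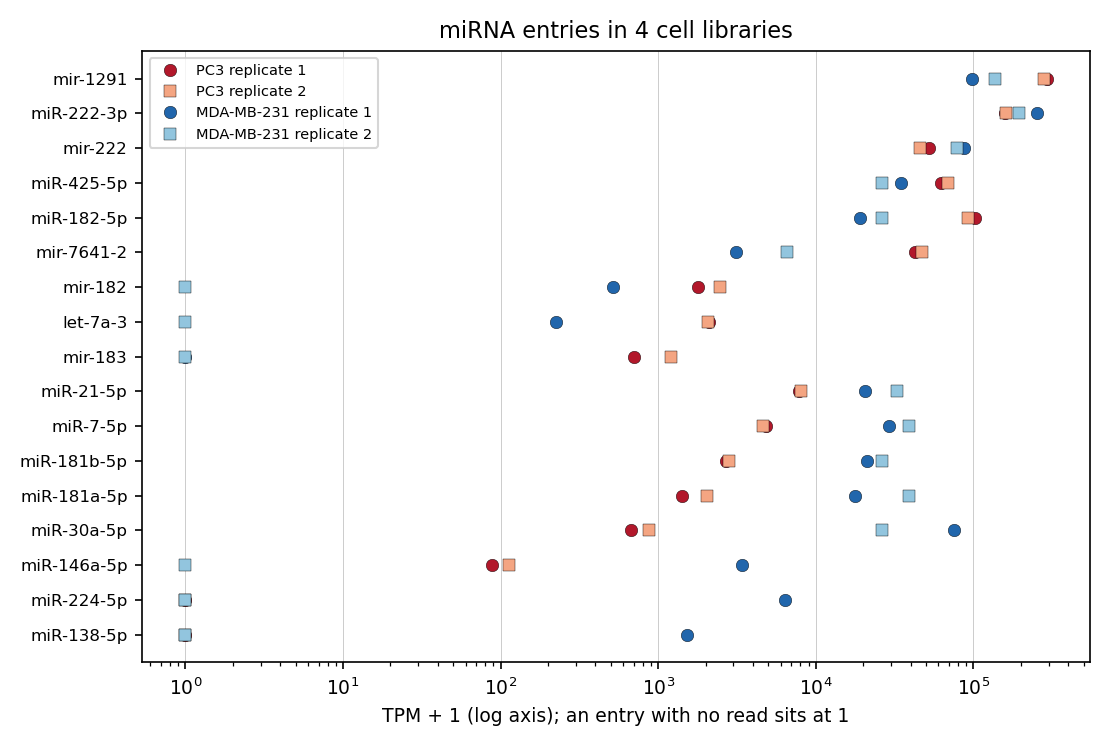
Level of 17 miRNA entries in the 4 cell libraries (TPM + 1, log axis); an entry with no read sits at 1. miR-182-5p and mir-7641-2 lie higher in both PC3 libraries and miR-30a-5p, miR-181a-5p, miR-181b-5p and miR-7-5p higher in both MDA-MB-231 libraries, while many weaker entries had no read in MDA-MB-231 replicate 2.

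The most abundant miRNA entries did not all separate the lines. miR-222-3p, a repressor of the cell cycle inhibitor CDKN1B, held 15.8%, 16.1%, 25.3% and 19.6% of miRNA reads (log2 -0.48, SE 0.39, adjusted p = 0.57, limma). The hairpin entry mir-1291 was the largest in PC3, with 29.2%, 28.1%, 9.77% and 13.7% (log2 1.31, SE 0.36). Its adjusted p was 0.059 in limma on 16 libraries, 0.018 without MDA-MB-231 replicate 2 and 0.00016 in edgeR. mir-1291 lies at chr12:48654444-48654530 (minus strand) over the H/ACA snoRNA SNORA2C at chr12:48654382-48654518 (minus strand), in KANSL2. Its 10045, 27372, 4333 and 21 reads were close to the 9540, 26019, 4141 and 19 reads of SNORA2C in the snoRNA table, so the same fragments can be counted in both. The 10 most abundant entries held 79.2% and 78.1% of miRNA reads in PC3 and 67.6% and 67.3% in MDA-MB-231.

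miR-21-5p, the oncogenic miRNA encoded in VMP1, and its hairpin entry went opposite ways. miR-21-5p held 270, 785, 907 and 5 reads and was lower in limma (log2 -1.70, SE 0.43, adjusted p = 0.037) but not in edgeR without MDA-MB-231 replicate 2 (log2 -0.71, adjusted p = 0.60). The hairpin mir-21 held 361, 1027, 235 and 0 reads and was higher in that edgeR fit (log2 1.64, adjusted p = 0.0097). It was not called in limma on 16 libraries (log2 7.17, adjusted p = 0.28), and without MDA-MB-231 replicate 2 it was (log2 0.99, adjusted p = 0.038).

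Several miRNAs had nearly all of their reads in 1 line, and miR-224-5p, miR-452-5p and mir-31, like miR-181d-5p above and the RPL3 and low SNORD116 entries, were picked after their values were seen. miR-224-5p and miR-452-5p, both encoded in GABRE, held 0, 0, 285 and 0 reads and 0, 0, 42 and 0 reads. They were at least 281-fold and 41.5-fold higher in MDA-MB-231, and were called by edgeR (adjusted p = 2.6e-17 and 6.6e-05) but not by limma. miR-138-5p held 0, 0, 68 and 0 reads and miR-146a-5p, a target of NF-κB signalling, held 3, 11, 152 and 0. Because MDA-MB-231 replicate 2 held 153 miRNA reads, its zeros carry little weight, and each of these 4 values rests on a single MDA-MB-231 library. In the other direction, the hairpin mir-31 held 39, 97, 0 and 0 reads and was at least 15.3-fold higher in PC3 (edgeR adjusted p = 0.00011, limma 0.088). let-7a-3, a hairpin of the let-7 family, held 72, 203, 10 and 0 reads and passed in limma on 16 libraries (log2 7.12, adjusted p = 0.0497) but not without MDA-MB-231 replicate 2 (log2 3.21, adjusted p = 0.055).

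The lists that mark cell types were at or near the floor in both lines. The miR-200 family, which marks epithelial cells, had 5 entries and summed to 6, 16, 7 and 0 reads. This marker family of the labelled epithelial type was thus scarce in both lines. miR-205 and miR-203 had no entry. The erythroid marker miR-486-5p held 2, 5, 11 and 0 reads, the neuron list 23, 85, 18 and 0 reads over 7 entries, the stromal list 0 reads, and the muscle and embryonic stem cell lists no entries. Of the other family lists, the let-7 family had 25 tested entries with 1 higher (4.0%, against 3.18% of all) and 0 lower in limma on 16 libraries, 0 without MDA-MB-231 replicate 2 and 3 higher in edgeR without it. The miR-17~92 clusters had 24 with 0 called in any of these fits. At 34422 reads, 363 and 366 miRNA entries would be expected in the PC3 libraries and 349 in MDA-MB-231 replicate 1. Over all libraries 569 were detected in PC3 and 375 in MDA-MB-231, of which 289 were shared, 50.8% of the PC3 set holding 99.2% of its TPM. In these bulk cultures, fewer cells that make a species and less of it per cell cannot be told apart.

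The EV libraries of the same lines were not part of the cell contrast, although the spread was estimated from all 16 libraries. Of the 45 snoRNAs higher in PC3 cells, 34 were also higher in PC3 EVs and 5 lower, where 18.2% of all tested snoRNAs were higher and 15.1% lower in EVs. All 26 of the 45 that are encoded in SNHG14 were among the 34, and several of these share reads. The count of 34 thus rests mostly on 1 locus, and the 5 lower ones all lie outside SNHG14. The SNORD116 entries kept their direction, with 24 of 28 higher and 0 lower, but at a median log2 difference of 1.95 against 7.57 in cells. SNORD116-3 differed by 2.02 (SE 0.39, adjusted p = 0.0013, limma) in EVs, and the cell difference exceeded it by 7.67 (adjusted p = 7.3e-06). Of the 5 snoRNAs that were lower in PC3 cells, 2 were lower in EVs: SNORD83A by a log2 difference of -1.04 and SNORD6 by -0.38. SNORD99 and SNORD65 differed there by -0.04 and -0.19, and the cell differences of both were larger by test. By isolation method, 29 of the 45 were higher and 1 lower in EVs from UC, where 12.3% of all tested snoRNAs were higher and 6.72% lower. In EVs from next-gen ATPS 2 were higher and 4 lower (1.4% and 4.76% of all), and in those from exoRNeasy 2 were higher and 5 lower (2.24% and 6.72% of all). Whether the methods differ was not tested.

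A smaller group turned around. SNORD3A and SNORD3C, higher in PC3 cells, were lower in PC3 EVs (log2 -2.07 and -2.09), and U8 (SNORD118) behaved likewise (-0.96). SNORA58B and SNORA58 were lower by -4.02 and -3.89. Each of these 5 was called in both comparisons, and the difference between cells and EVs passed for each. The H/ACA list had 4 entries higher and 26 lower in PC3 EVs, of 133 tested (3.01% and 19.5%, against 18.2% and 15.1% of all snoRNAs). Among miRNAs, the 4 that were lower in PC3 cells were also lower in PC3 EVs, where 1.24% of miRNA entries were higher and 6.01% lower, with median log2 differences of -3.52 in cells and -2.81 in EVs. miR-182-5p was higher in both, by 2.12 in cells and 3.87 in EVs, while mir-7641-2 was higher in PC3 cells and lower in PC3 EVs (log2 -2.52).

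**Figure D4:**
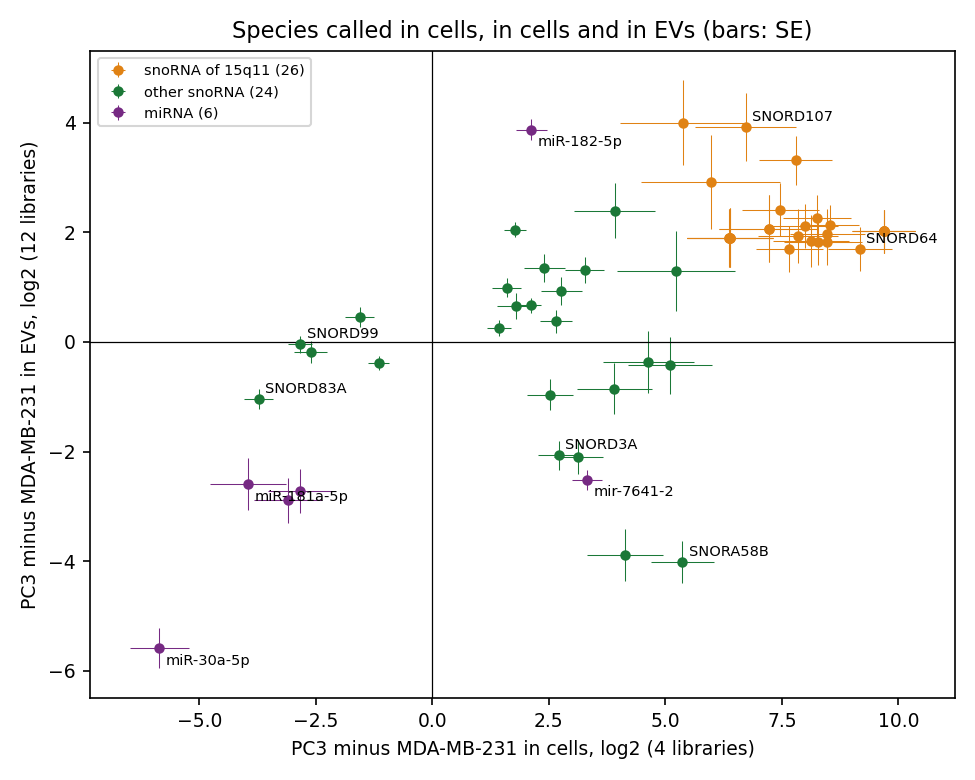
Log2 difference PC3 minus MDA-MB-231 in cells (x axis) against that in EVs (y axis) for the 56 snoRNAs and miRNAs called in all 3 fits in cells; bars are standard errors from limma. The 15q11 snoRNAs sit at the right, all above 0 in EVs, and SNORA58B, SNORD3A and mir-7641-2 lie below 0 in EVs although they lie to the right in cells.

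The circRNA table could not be read as independent of the snoRNA table. Of 2558 circRNA entries tested, 337 were higher in PC3 in all 3 fits (13.2%) and 132 lower (5.16%), and these entries show 1699 distinct read profiles among them. limma on 16 libraries called 788 higher (30.8%) and 206 lower (8.05%), and edgeR without MDA-MB-231 replicate 2 called 340 (13.6%) and 273 (10.9%), with median log2 differences over all entries of 0.59 and -0.14. Of the 525 entries with at least 1000 reads in PC3 replicate 1, 172 (32.8%) matched a snoRNA to within 1% of its reads in all 3 deep libraries, and 245 (46.7%) to within 5%. hsa_circ_0068458 held 583233 reads in PC3 replicate 1, the very number of SNORD2.

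Some entries that differed between the lines repeated the reads of a single snoRNA. Most matched no single snoRNA, which does not show that they are free of snoRNA fragments. Each entry was set against 1 snoRNA at a time. An entry that holds fragments of several snoRNAs would therefore not count as a match, and sums of snoRNAs were not tested. Of the 132 entries among the 525 that were called in all 3 fits, 35 (26.5%) matched a snoRNA within 1%, against 32.8% of all 525. hsa_circ_0063378, higher in MDA-MB-231, held 487, 1616, 6702 and 35 reads against the 487, 1614, 6698 and 35 of SNORD83A, and differed by -3.03 (SE 0.31, adjusted p = 2.3e-05, limma). hsa_circ_0034114, higher in PC3, held 25138, 71416, 63 and 0 reads and differed by 9.16 (SE 0.47, adjusted p = 8.4e-08, limma). Its nearest snoRNA, SNORD116-19, held 8997, 25268, 23 and 2. hsa_circ_0103188, also higher in PC3, held 24140 reads in PC3 replicate 1 and 62 in MDA-MB-231 replicate 1. SNORD116-2 to SNORD116-7, set beside it after values were seen, held 1389, 7258, 81, 7251, 910 and 7251 in PC3 replicate 1. In MDA-MB-231 replicate 1 they held 7, 18, 0, 18, 1 and 18. Whether such entries count fragments of several copies was not tested. hsa_circ_0016573 was higher in MDA-MB-231 with 19, 93, 343 and 6 reads (log2 -3.19, SE 0.38). hsa_circ_0073681 held 2615, 6864, 5470 and 1471 reads, up to 25.7% from its nearest snoRNA in the 3 deep libraries. It passed in limma on 16 libraries (log2 -3.37, adjusted p = 0.041) but not without MDA-MB-231 replicate 2 (log2 -1.04, adjusted p = 0.066).

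**Figure D5:**
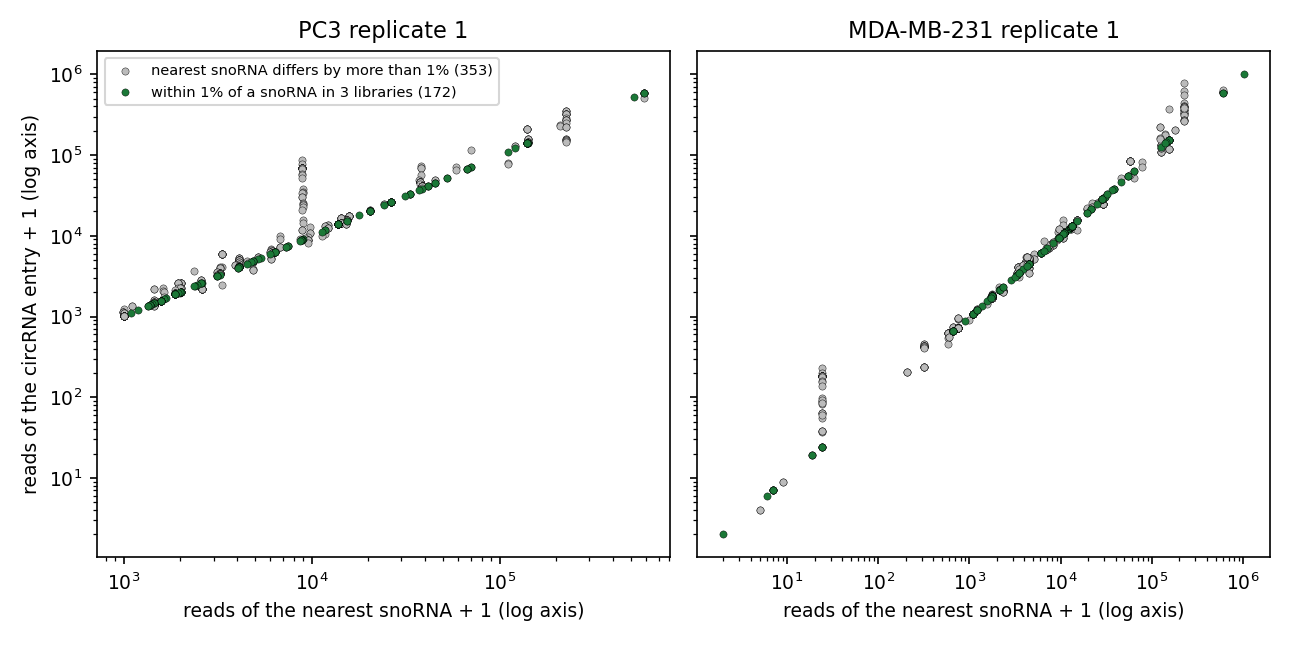
Reads of each of 525 circRNA entries (y axis) against reads of the snoRNA nearest to it in read count (x axis), both plus 1 on log axes, in PC3 replicate 1 and MDA-MB-231 replicate 1. The 172 entries within 1% of a snoRNA in all 3 deep libraries fall on a line in both libraries and the other 353 scatter around it, some of them far above their nearest snoRNA.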

How the data were processed

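Small RNA was sequenced from 4 cell and 12 EV libraries in 8 groups of 2. The authors discarded reads of low quality, retained those with a length between 18 and 35 bases, mapped these with STAR (build hg38) and annotated them with COMPSRA, with multimapping reads weighted towards unique ones. Their versions were not given in the sources used here. Both STAR and hg38 also stand in the submitters' processing notes. The deposited values are named TPM by the authors but behave as CPM within an RNA class: every library has the same total and all values were whole multiples of 1 read to within 0.1 read, from which reads were recovered. No column lacked a sample (0 columns). Coordinates were matched by name, for 779 of 915 miRNA and 395 of 413 snoRNA entries. Those of miRNAs came from RefSeq, and those of snoRNAs from GENCODE 44 or, where it lacked the name, RefSeq. Hosts were GENCODE 44 genes that contain the entry on the same strand.

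log2(TPM + 1) was fitted with limma 3.58.1 (R 4.3.3; trended, robust variance, 8 group means) for species at 1 TPM or more in at least 2 libraries, with Benjamini-Hochberg adjustment over each class and a threshold of 0.05. Recovered reads were fitted with edgeR 4.0.16 (quasi-likelihood, TMM) and DESeq2 1.42.0. The requirement of 3 agreeing fits was chosen after seeing the data. Named species were, per direction, up to 8 miRNAs or snoRNAs (5 circRNAs) with the largest changes that passed limma, had at least 20 reads over the 3 deep cell libraries and did not overlap between the lines, up to 8 more from the fit without MDA-MB-231 replicate 2, the 5 most abundant per line, and the most abundant members of 44 RNA lists. The members and lists were chosen with earlier results of these data known. Replicates differed by more than sampling noise in every class (chi-square over df between 2.42 and 4144), so none was counted as a duplicate. Pooled folds carry exact 95% intervals and a limit of 3 counts for a 0, both for counting error only. The scripts were tested on simulated data.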

Additional observations from a re-analysis of the deposited data

Results flagged for a closer look

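All results here were flagged because the PC3 minus MDA-MB-231 difference in cells differed from that in EVs by a test of the difference itself (limma, adjusted p under 0.05). Values are the difference in cells minus the difference in EVs, on the log2 scale. 58 of the named or called species met this, and 51 of them also did so without MDA-MB-231 replicate 2. The 7 that did not were SNORA63 (4.59, adjusted p = 0.36), SNORD6 (-0.61, 0.32), SNORD78 (3.96, 0.17), SNORA7A (1.24, 0.13), SNORD42A (-1.25, 0.10), SNORD49B (1.84, 0.055) and SNORD58B (-1.38, 0.0503).

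The snoRNAs of 15q11 were further apart in cells than in EVs. The excess was 7.67 for SNORD116-3 and SNORD116-9, 7.68 for SNORD116-5 and SNORD116-7, 7.48 for SNORD64, 6.64 for SNORD116-1, 6.51 for SNORD116-16, 6.44 for SNORD116-24, 6.40 for SNORD116-8, 6.28 for SNORD116-22, 5.98 for SNORD116-25, 5.96 for SNORD116-26, 5.92 for SNORD116-2, 5.88 for SNORD116-29, 5.15 for SNORD109A and SNORD109B, and 5.05 for SNORD116-21. It was 4.49 for SNORD116-6, SNORD116-15, SNORD116-17 and SNORD116-19, and 4.48 for SNORD116-14 and SNORD116-20. Depth moved with this result: the EV libraries held 41519 to 400429 snoRNA reads and the 3 deep cell libraries 3555333 to 10849128, and its part was not tested.

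Species with opposite signs in cells and EVs, which in part rest on differences that did not pass on their own, were SNORA58B (9.38), SNORA58 (8.02), SNORA63 (7.11), mir-7641-2 (5.83), SNORA53 (5.52), SNORD3C (5.23), SNORA62 (5.01), SNORD3A (4.79), SNORA66 (4.76), SNORD78 (4.55), SNORD3B-1 (4.15), SNORD3B-2 (4.14), SNORD118 (3.49) and SNORA7A (1.74). On the MDA-MB-231 side they were SNORD58A (-2.02), SNORD14C (-1.82), SNORD58B (-1.40), SNORD42A (-1.27) and hsa_circ_0016573 (-4.15). With the same sign but a larger size in cells were SNORD99 (-2.79), SNORD83A (-2.68), SNORD65 (-2.43), SNORD6 (-0.77), SNORD16 (2.28), SNORD104 (1.96), SNORD49B (1.84), SNORD53B (1.44) and SNORD88C (1.18). Among circRNA entries the excess was 8.08 for hsa_circ_0034117, 8.05 for hsa_circ_0034114, 8.001 for hsa_circ_0103188, 7.998 for hsa_circ_0103189, 7.81 for hsa_circ_0034113, and -2.60 for hsa_circ_0063378 and hsa_circ_0063380.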

How the results depend on the processing

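The second MDA-MB-231 cell library and the miRNA depth limit these results: 153 miRNA reads cannot show a species below 6536 TPM. No called direction reversed under any alternative run. Counts are given as higher and lower in PC3, and except where a cause follows from fewer libraries or species the cause was not tested. Requiring 3 fits, a rule chosen after seeing the data, gave 2 and 4 miRNAs, 45 and 5 snoRNAs and 337 and 132 circRNA entries, against 18 and 6, 72 and 8, and 788 and 206 in limma on 16 libraries. Leaving out each cell library in turn gave 2 to 84 higher and 1 to 12 lower miRNAs, 49 to 98 higher and 5 to 11 lower snoRNAs, and 260 to 1499 higher and 160 to 541 lower circRNA entries, with the highest count of higher calls without MDA-MB-231 replicate 1. Without a filter 0 and 0 miRNAs were called (64 at an unadjusted p under 0.05, against 26 by DESeq2 and 37 by edgeR at an adjusted one), and 9757 and 134 circRNA entries. With only the 4 cell libraries limma called 0 and 0 miRNAs (83 at an unadjusted p under 0.05), 14 lower snoRNAs, and 113 and 1 circRNA entries. A minimum of 10 reads gave 8 higher miRNAs and 2617 higher circRNA entries. Quantile scaling gave 3 lower miRNAs and 21 lower snoRNAs. Centring on common species gave 30 and 1 miRNAs and 43 and 26 snoRNAs. Array weights gave 1 and 1 miRNAs and 170 and 26 circRNA entries. edgeR on all libraries gave 16 lower miRNAs, 42 lower snoRNAs and 367 higher circRNA entries; without MDA-MB-231 replicate 2 it gave 20, 47 and 340. DESeq2 gave 22 lower snoRNAs, and 297 and 434 circRNA entries.

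Of the 45 snoRNAs higher in 3 fits, 34 to 45 were called under each single alternative, the fewest with only the cell libraries, and the 5 lower ones in all of them. Of the 4 lower miRNAs only miR-30a-5p passed without PC3 replicate 1 or without PC3 replicate 2, or with centring or array weights. The replicate numbers share only a number, since nothing says that they mark a shared batch (correlation of paired deviations -0.04 for miRNAs, -0.06 for snoRNAs and 0.22 for circRNA entries). A replicate block gave 9 and 2 miRNAs, 75 and 11 snoRNAs, and 848 and 216 circRNA entries. At equal reads, with MDA-MB-231 replicate 2 left out, PC3 minus MDA-MB-231 in species detected was 15.7 (miRNAs), 69.9 (snoRNAs) and -4667 (circRNA entries). As detected, it was 230, 160 and 28139 with all libraries, and 60.5, 79.5 and 6048 when only that library was left out. The equal-read values treat each counted read as a separate draw, although entries can share fragments.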
